A study of Mus musculus with 4 samples.

Results

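Accessible chromatin was described at 9 genes of the VEGF system in mouse retinal endothelial cells, the ligands Vegfa, Vegfc and Pgf, the receptors Kdr, Flt1 and Flt4, the neuropilins Nrp1 and Nrp2, and the semaphorin receptor Plxnd1. The 9 were taken by name out of 21627 protein-coding genes on the 19 autosomes and X. For each gene, every deposited peak that overlapped the RefSeq gene body (GRCm38.p6, the chromosomes of mm10) or the 10 kb on either side was used, and peaks within 1 kb of a gene end were noted. Endothelial cells had been sorted by FACS from retinas of C57BL/6 mice at postnatal day 16, and ATAC-seq, which maps open DNA by letting a transposase insert adapters there, was run on 2000 cells per library. There were 2 libraries with the genotype Zeb1 knockdown, titled Zeb1-CKO and called knockdown 1 and knockdown 2 here, and 2 control libraries, control 1 and control 2. Zeb1 is a transcription factor best known for holding epithelial genes silent. The Cre driver or knockdown agent, the exact control genotype, and the number of animals behind each library are not given in the sources used here, so part or all of the spread within a group can be technical.

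VEGF-A drives vessel growth through the receptor tyrosine kinase VEGFR2, which is encoded by Kdr. VEGFR1, encoded by Flt1, binds VEGF-A and placental growth factor (Pgf) and largely acts as a trap for ligand, while VEGFR3 (Flt4) is the receptor of VEGF-C and is found on sprouting endothelium as well as on lymphatic vessels. Neuropilins are co-receptors shared by VEGF and class 3 semaphorins, and plexin D1 receives the semaphorin 3E signal that restrains vessel growth in the developing retina. In the retina the ligands come in large part from neurons and glia, whereas the receptors belong mainly to the endothelium.

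Each receptor, neuropilin and plexin gene had a peak in body or flanks in both knockdown libraries and in control 2. In control 1, Flt4 and Plxnd1 had none. Of all protein-coding genes, 54.6% and 61.7% had such a peak in the knockdown libraries and 35.4% and 53.9% in the controls. Vegfa had a peak in knockdown 1 and control 2, and Pgf in both knockdown libraries. Body and flanks spanned 35.4 and 31.1 kb at Vegfa and Pgf, and 60.5 kb or more at the receptor genes. Regions of joined peaks per 100 kb were 2.83 at Vegfa and 3.21 at Pgf, against 3.79 at Flt1 and 7.55 at Kdr. Nrp1 lay between Vegfa and Pgf, so among the ligand genes only Vegfc stood apart. Peaks covered or lay next to the start of Kdr, Flt1, Flt4 and Nrp2 in both knockdown libraries and in control 2. The start of Plxnd1 was covered in both knockdown libraries and in neither control. Vegfc had no peak in any library. Because these starts carry the description that follows, the 250 bases before the start of each of the 5 genes are shown from RefSeq (GRCm38.p6), read along the gene. Capitals mark GC boxes (GGGCGG or its reverse complement, the letters bound by Sp1-type factors), the E2-box CACCTG that Zeb1 is known to bind, and the ETS core CCGGAA, on either strand.
Kdr (chr5:75978456-75978705, minus strand): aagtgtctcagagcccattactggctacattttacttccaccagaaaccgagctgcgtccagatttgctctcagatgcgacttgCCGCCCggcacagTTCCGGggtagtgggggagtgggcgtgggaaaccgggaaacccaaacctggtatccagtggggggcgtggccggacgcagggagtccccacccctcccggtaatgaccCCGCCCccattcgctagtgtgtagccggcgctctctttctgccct
Flt1 (chr5:147726012-147726261, minus strand): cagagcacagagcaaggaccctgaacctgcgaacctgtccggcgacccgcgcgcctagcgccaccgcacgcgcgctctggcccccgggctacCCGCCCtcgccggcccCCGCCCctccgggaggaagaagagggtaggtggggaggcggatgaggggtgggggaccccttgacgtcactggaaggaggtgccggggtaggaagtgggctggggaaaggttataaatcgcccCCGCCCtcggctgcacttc
Flt4 (chr11:49609429-49609678, plus strand): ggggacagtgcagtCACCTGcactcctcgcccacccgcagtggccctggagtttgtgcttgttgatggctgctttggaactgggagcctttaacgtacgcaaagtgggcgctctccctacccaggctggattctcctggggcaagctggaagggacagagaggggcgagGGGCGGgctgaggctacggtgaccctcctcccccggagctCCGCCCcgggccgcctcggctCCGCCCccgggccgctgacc
Nrp2 (chr1:62703067-62703316, plus strand): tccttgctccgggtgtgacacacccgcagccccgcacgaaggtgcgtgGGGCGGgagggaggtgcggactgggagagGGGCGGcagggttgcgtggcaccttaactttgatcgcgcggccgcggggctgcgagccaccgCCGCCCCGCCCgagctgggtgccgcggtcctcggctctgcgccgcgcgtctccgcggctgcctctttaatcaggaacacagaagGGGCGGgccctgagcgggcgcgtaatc
Plxnd1 (chr6:115995006-115995255, minus strand): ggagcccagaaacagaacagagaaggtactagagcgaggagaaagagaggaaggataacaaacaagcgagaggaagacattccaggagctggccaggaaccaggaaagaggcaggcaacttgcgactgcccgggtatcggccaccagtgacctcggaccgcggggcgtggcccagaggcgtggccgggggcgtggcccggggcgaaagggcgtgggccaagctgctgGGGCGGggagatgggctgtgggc

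RefSeq promoter windows of 300 bases, 250 before and 50 after a start, numbered 11 for the 9 genes, with 2 each for Vegfa and Pgf. A GC box was found in 10 of the 11, against 35.9% of all 32619 windows. The 11 were rich in G and C, between 59.3% and 70.7% against a mean of 53.9% over all windows. Among the 10217 windows with at least 59.3% G and C, 79.3% held a GC box. The E2-box was found in 3 of the 11 windows, those of Flt4, of Pgf and of the inner start of Vegfa, against 20.3% of all windows. In Flt4 it lay at -236 to -231, counting the start base as 0, and both knockdown peaks there began downstream of it, at -62 and -57. The ETS core, letters shared by many endothelial regulators, was found in the Kdr window alone of the 11, at -153 to -148, against 4892 of the 32619 windows. Any E-box (CANNTG, which contains the E2-box) was in 6 of the 11 against 72.3%. ACGTG, the core of the hypoxia response element, was in 1 against 19.8%, the window of the inner start of Vegfa. That window held no peak in any library. The AP-1 site TGANTCA was in 0 against 7.85%. These matches describe letters and not binding.

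The lists that these values come from held 13689 and 19886 peaks in the knockdown libraries and 7608 and 13672 in the controls, for replicates 1 and 2. Read depth is unknown, so a missing peak and a shallow library look the same. Control 1 had the shortest list and stood apart, with a gene-end peak at 22.0% of all protein-coding genes. This share was 39.5% and 45.2% in the knockdown libraries and 38.5% in control 2. Over body and flanks the shares were 54.6% and 61.7% in the knockdown libraries and 35.4% and 53.9% in the controls. Of 14 endothelial markers, 5 and 7 were open at a gene end in the knockdown libraries and 4 and 5 in the controls, and over body and flanks 14 and 14 in the knockdown libraries and 10 and 14 in the controls. The 13 photoreceptor markers followed the replicate number, with 7 at knockdown 2 and 8 at control 2 open at a gene end and 0 in both replicate 1 libraries, and over body and flanks 6 and 13 in the knockdown libraries and 4 and 13 in the controls. Of 8 epithelial markers, 6 and 6 held a gene-end peak in the knockdown libraries and 0 in either control, while over body and flanks 6 and 8 held a peak in the knockdown libraries and 1 and 3 in the controls. Of all 10496 genes with a gene-end peak, 7.82% had one in both knockdown libraries and in no control. Mural and leukocyte markers, 8 of each, had 0 gene-end peaks in every library. Over body and flanks, 1 and 3 mural markers held a peak in the knockdown libraries and 0 and 0 in the controls. For leukocyte markers these counts were 1 and 2 in the knockdown libraries and 1 and 2 in the controls. Of the 8 glial markers, 2 per library held a gene-end peak, but they were not the same genes throughout. In all, 3 held one in some library and 1 (Glul) in all 4. Of 7 markers of other neurons, 1 (Rbpms) held one in all 4.

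Over the 9 genes, 19 and 21 peaks were listed in the knockdown libraries and 5 and 17 in the controls. The means were 20 ± 1.41 in the knockdown group and 11 ± 8.49 in the control group (SD, n = 2 each), a difference of 9 that was about as large as the spread of the controls. Without control 1 the difference was 3, and without control 2 it was 15. Per 1000 peaks of the list, the knockdown libraries had 1.39 and 1.06 and the controls 0.659 and 1.24, so that the groups overlapped. A peak stood within 1 kb of a gene end at 7 and 6 of the 9 genes in the knockdown libraries and at 1 and 6 in the controls, a mean difference of 3 that was 0.5 without control 1 and 5.5 without control 2. For a single value, 2 libraries against 2 allow 6 arrangements and a two-sided exact permutation p of no less than 0.333, so no gene could pass a test of its own. Most peaks were weak in their own list: 42 of the 62 lay in its weaker part, past percentile 50 from the top by −log10 p, and 5 lay in the top 10%, all at Flt1 or Kdr.

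**Figure D1:**
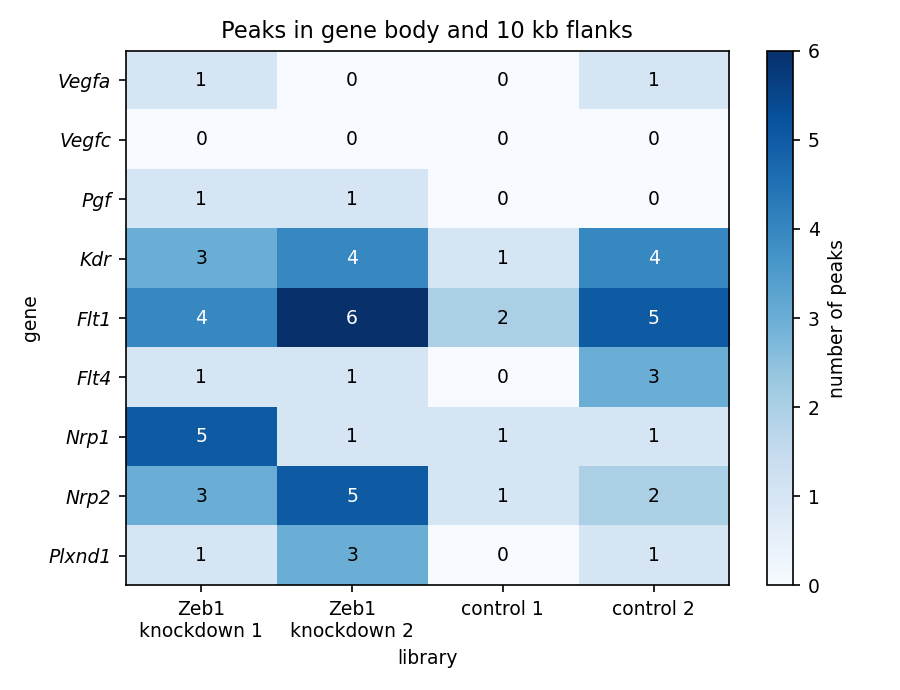
Number of deposited peaks in the gene body and 10 kb flanks of each VEGF gene (rows) in each library (columns), with darker cells for more peaks. Flt1 has 4 and 6 peaks in the knockdown libraries and 2 and 5 in the controls, while Vegfc has 0 in all 4.

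Among the ligand genes, Vegfa, the main growth factor for endothelium, had 1 and 0 peaks in the knockdown libraries and 0 and 1 in the controls. The knockdown 1 peak ran from -561 to 27 bp around the start (chromosome 17, gene from 46016993 to 46032377), with a fold enrichment of 3.40 and a −log10 q of 2.02. The control 2 peak lay farther upstream, from -1171 to -415 bp, with a fold enrichment of 3.84 and a −log10 q of 1.82. Fold enrichment and −log10 q are the authors' values for each peak within its own library, set against that library's own background, so they are given to describe each peak and show no change between libraries. With 1 library of each group holding a peak, the groups overlapped. Both peaks were near the bottom of their lists, at percentiles 88.3 and 93.4 from the top.

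Pgf, whose product binds VEGFR1, had no peak in its body or within 1 kb of a gene end. It had 1 and 1 peaks in the knockdown libraries and 0 and 0 in the controls, all in a region from 85185932 to 85186741 on chromosome 12, with its bases from -9428 to -8619 bp relative to the start. Its peaks stood at percentiles 92.8 and 60.2 in knockdown 1 and knockdown 2, with −log10 q of 1.77 and 3.46. The groups did not overlap (two-sided exact permutation p = 0.333, the smallest possible). No protein-coding gene body or gene end other than those of Pgf lay within 1 kb of this region. With 50 kb on each side the window of Pgf held 6 and 6 peaks in the knockdown libraries and 1 and 2 in the controls, and that stretch was not assigned to any gene. Vegfc, which encodes the ligand of VEGFR3, had 0 peaks in all 4 libraries over its 108.9 kb body (chromosome 8, 54077532 to 54186454) and its flanks, also with 50 kb on each side.

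**Figure D2:**
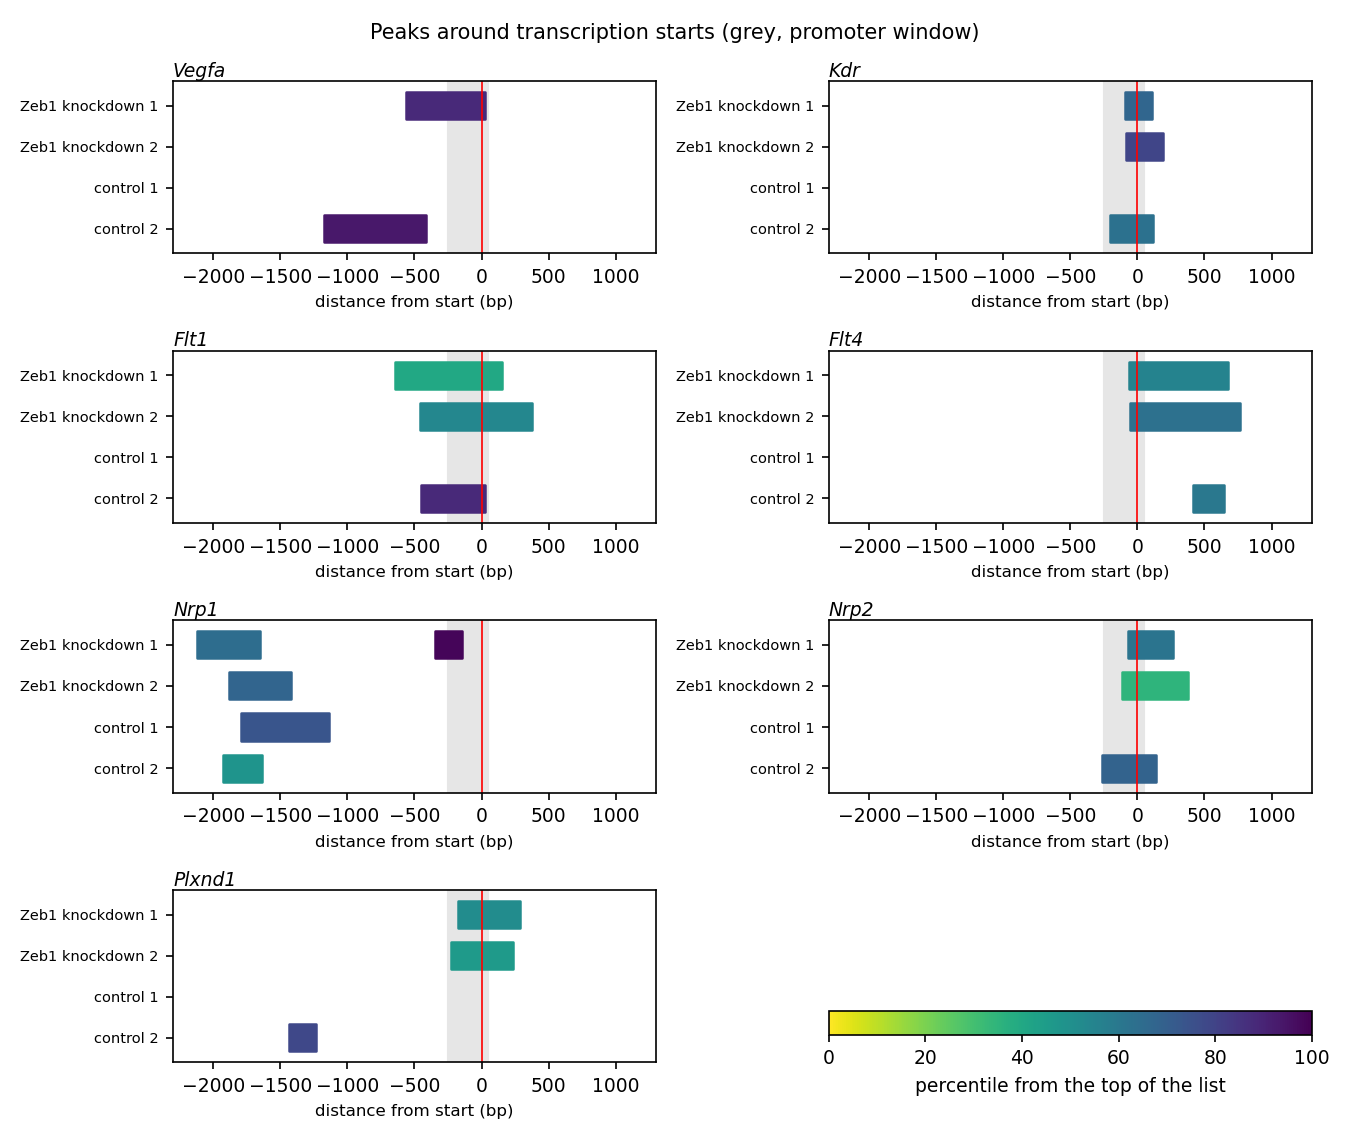
Peaks of each library (rows, knockdown above control) drawn by their distance in bp from the transcription start of 7 genes, coloured by percentile from the top of their list, with the start as a red line and the promoter window in grey. Around the start of Plxnd1 the peaks of both knockdown libraries cover the start, and the single control 2 peak lies upstream and ends at -1235 bp.

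Kdr, the gene of the main signalling receptor, had 3 and 4 peaks in the knockdown libraries and 1 and 4 in the controls. Its start (chromosome 5, base 75978455) was covered by a peak in knockdown 1 (-92 to 107 bp), knockdown 2 (-85 to 194 bp) and control 2 (-204 to 118 bp). These start peaks had fold enrichments of 4.41 and 4.15 in the knockdown libraries and 4.82 in control 2, at percentiles 67.5, 79.4 and 62.6. In control 1 no peak was listed there. The bases shared by the 3 peaks exclude the ETS core, which only the control 2 peak reached.

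The best-ranked Kdr region lay beyond the far end of the gene and was held by all 4 libraries. It ran from 75922654 to 75923157, and its middle was 55550 bp from the start, at the very edge of the 10 kb flank. Its peaks stood at percentiles 31.9 and 21.3 in the knockdown libraries and 70.3 and 8.30 in the controls. A further region near the far end of the gene, 44357 to 44888 bp from the start, was held by both knockdown libraries and control 2. Of the remaining Kdr regions, 1 was found in knockdown 2 alone and 1 in control 2 alone, at percentiles 99.6 and 96.0 of their lists.

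Flt1 had the most peaks of the 9 genes over the 4 libraries together (17), with 4 and 6 in the knockdown libraries and 2 and 5 in the controls, in 7 regions. In knockdown 1 alone, Nrp1 had more, with 5. At the start of Flt1 (chromosome 5, base 147726011) the peaks ran from -648 to 156 bp in knockdown 1, from -460 to 376 bp in knockdown 2 and from -453 to 25 bp in control 2. Their −log10 q was 5.23 and 3.87 in the knockdown libraries and 2.09 in control 2, and control 1 had none. The start was therefore listed in both groups, with the control 2 peak at percentile 88.4 of its list.

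Inside the Flt1 body, a pair of regions was held by all 4 libraries and held the best-ranked peaks of the whole set. The first, from 147589804 to 147590429 (middle 135895 bp from the start), stood at percentiles 8.18 and 4.02 in the knockdown libraries and 20.5 and 55.9 in the controls. The second, from 147611338 to 147611770 (middle 114457 bp from the start), stood at 0.285 and 22.3 in the knockdown libraries and 0.237 and 31.7 in the controls. The peak was thus in the top 1% of both replicate 1 lists and lower in both replicate 2 lists. In both replicate 1 libraries this peak had the same first and last base, which was the case for 17 peaks of these lists, 0.124% of those of knockdown 1 and 0.224% of those of control 1.

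Another inner region of Flt1, from 147620190 to 147620470, was listed in both knockdown libraries and in no control library, the pattern called knockdown-only here. Its peaks were weak, with −log10 q of 2.82 and 2.61, at percentiles 73.9 and 76.3. A region 18159 to 18504 bp from the start was held by both replicate 2 libraries, at percentiles 76.8 in knockdown 2 and 62.8 in control 2. The photoreceptor markers had the same libraries in common, and their part in this region was not tested. The last 2 Flt1 regions were each in a single library, knockdown 2 (beyond the far end) and control 2.

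Flt4 had 1 and 1 peaks in the knockdown libraries and 0 and 3 in the controls. The knockdown peaks covered the start (chromosome 11, base 49609679), from -62 to 679 bp and from -57 to 764 bp. The control 2 peak in the same region was narrower, 234 bp wide against 742 and 822 bp, and lay from 414 to 647 bp, past the start. Its percentile, 60.0, was between those of the knockdown peaks, 55.3 and 63.2. The remaining Flt4 regions, 1 in the body and 1 just past the far end, were found in control 2 alone.

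**Figure D3:**
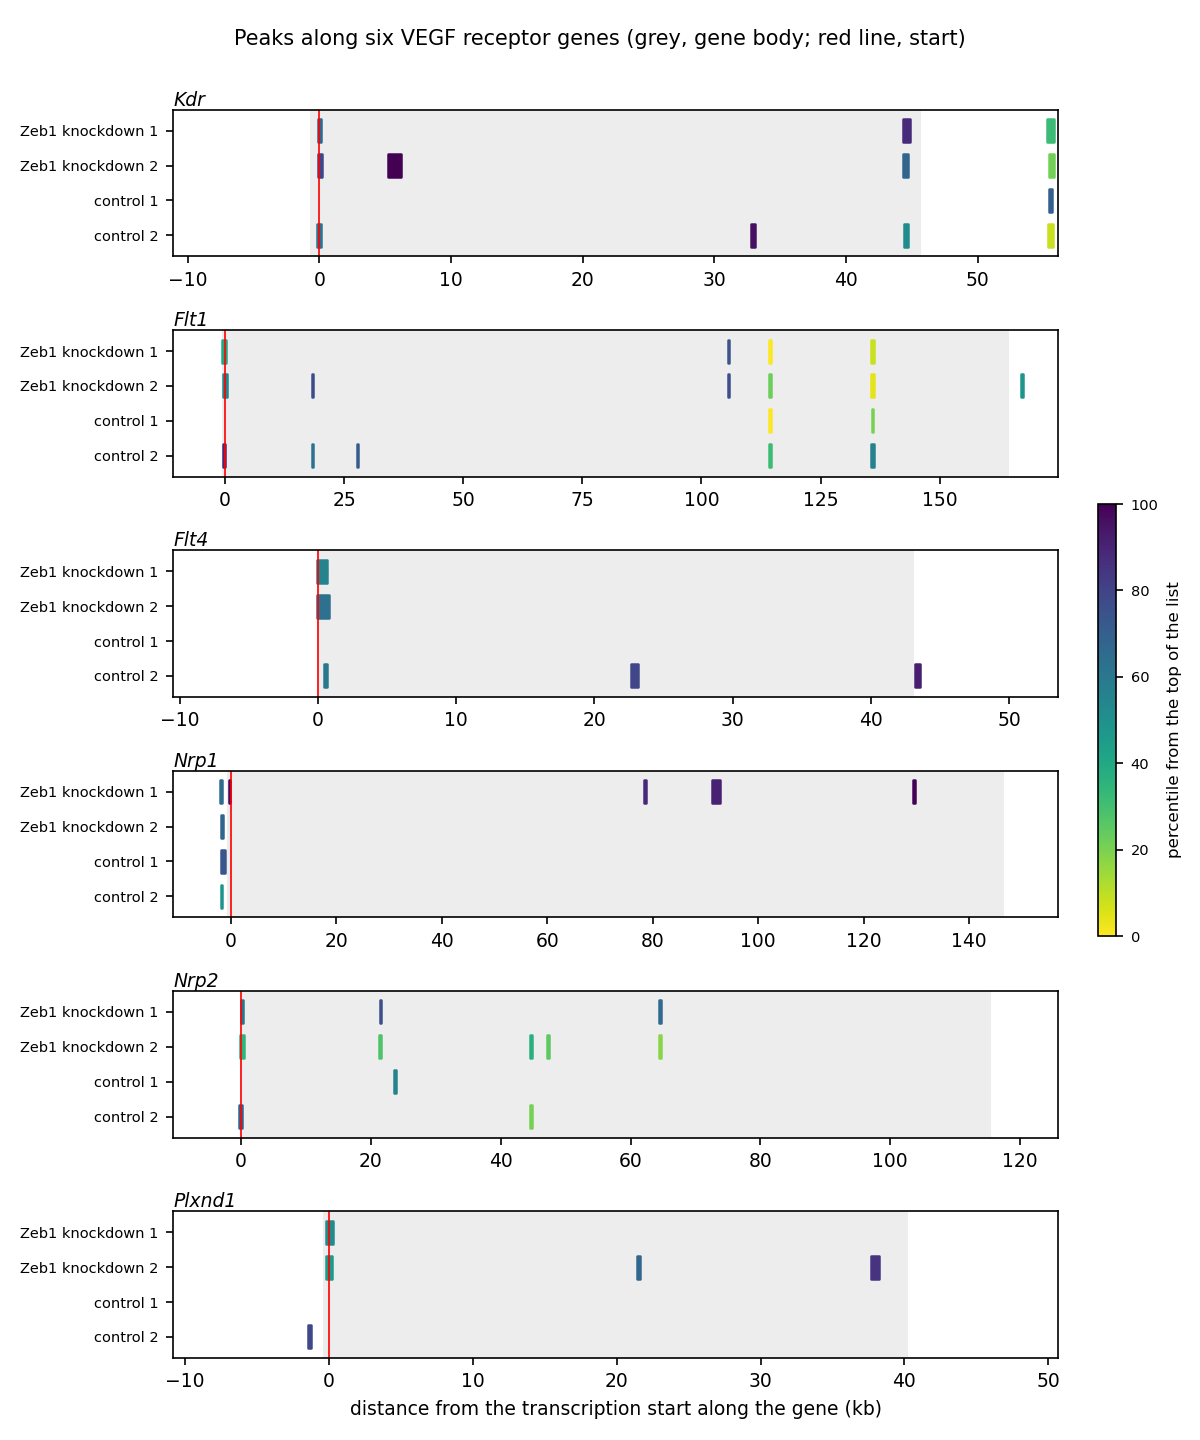
Peaks along the bodies and flanks of the receptor, neuropilin and plexin genes, one row per library with knockdown above control, by distance in kb from the transcription start, coloured by percentile from the top of the library's list. The inner Flt1 regions near 114 and 136 kb are present in all 4 rows. The Nrp2 body has peaks in both knockdown rows that the control rows lack, and a control 1 peak that the other rows lack.

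Nrp2, a co-receptor for VEGF-C and for semaphorin 3F, had 3 and 5 peaks in the knockdown libraries and 1 and 2 in the controls. The groups did not overlap here (exact permutation p = 0.333, the smallest the design allows), but the separation was lost when weaker peaks were left out. Keeping peaks whose −log10 q was 3 or more gave 2 and 5 peaks in the knockdown libraries and 0 and 2 in the controls. With the 7608 strongest peaks of each list the counts were 0 and 5 in the knockdown libraries and 1 and 1 in the controls. Of the 8 genes with a peak, 2 (Pgf and Nrp2) had more in each knockdown library than in either control, and this held for 14.3% of all 14239 genes with a peak in body or flanks. None of the 8 had fewer in each knockdown library than in either control, against 0.414% of those genes. Pgf lost its separation too, with 0 and 1 peaks in the knockdown libraries and 0 and 0 in the controls at the stricter q. With lists of equal length it had none in any library. Plxnd1 went the other way at the stricter q, with 1 and 2 peaks in the knockdown libraries and 0 and 0 in the controls. Its groups overlapped with all peaks, and again with equal lists, at 1 and 0 against 0 and 0. The start of Nrp2 (chromosome 1, base 62703317) was covered from -70 to 265 bp in knockdown 1, from -116 to 374 bp in knockdown 2 and from -264 to 139 bp in control 2, so the start was listed in both groups.

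In the Nrp2 body, 2 regions were knockdown-only. One ran from 62724552 to 62724903, with its middle 21410 bp from the start, at percentiles 75.9 and 27.9 in knockdown 1 and knockdown 2. The other, from 62767727 to 62768060, 64576 bp from the start, stood at percentiles 65.9 and 17.8, with −log10 q of 3.26 and 8.76. A region at 62747801 to 62748108 was held by both replicate 2 libraries, at percentiles 36.4 in knockdown 2 and 21.0 in control 2. A region in knockdown 2 alone and another in control 1 alone made up the rest.

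Nrp1, the co-receptor that binds VEGF-A together with VEGFR2, had 5 and 1 peaks in the knockdown libraries and 1 and 1 in the controls. All 4 libraries held a region upstream of the gene, from 128356949 to 128357936 on chromosome 8, at -2124 to -1137 bp from the start. The peaks in it stood at percentiles 64.6 and 67.9 in the knockdown libraries and 73.4 and 48.2 in the controls. The gene end (base 128358591) lies upstream of the start used (base 128359073). Each library placed its peak a little differently. In knockdown 2 and control 1 it reached to within 1 kb of the gene end, and in knockdown 1 and control 2 it did not. The other 4 regions of Nrp1, 1 near the start and 3 in the body, were in knockdown 1 alone at percentiles between 88.4 and 99.5, and the higher count there rests on that library.

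Plxnd1, the semaphorin receptor, had 1 and 3 peaks in the knockdown libraries and 0 and 1 in the controls. A region at its start (chromosome 6, from 115994715 to 115995229) was knockdown-only. It ran from -175 to 290 bp in knockdown 1 and from -224 to 237 bp in knockdown 2, with fold enrichments of 3.58 and 4.57 and −log10 q of 4.15 and 4.45, at percentiles 51.7 and 46.0. Control 2 had a peak of 204 bp farther upstream, from -1438 to -1235 bp. It still counts as a gene-end peak, because the gene end (base 115995339) lies upstream of the start used (base 115995005). Plxnd1 was therefore not knockdown-only as a gene. The other 2 regions, both in the body, were in knockdown 2 alone.

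The 62 peaks merged into 32 regions, where peaks of the 4 lists that overlapped or touched were joined. Of the 32, 5 (15.6%) were knockdown-only, those of Pgf, Flt1, Nrp2 (2 regions) and Plxnd1, against 10.1% of all 25263 merged regions. None of the 32 was control-only, a pattern that 0.158% of all regions had. A further 5 of the 32 were held by both knockdown libraries and control 2 (15.6% against 16.6%), and 4 by all libraries (12.5% against 20.3%). The replicate 2 libraries alone shared 2 (against 7.66%), the replicate 1 libraries 0 (against 0.59%), and knockdown 1 and control 2 shared 1, that of Vegfa (against 1.13%). The regions found in 1 library were 4 in knockdown 1, 5 in knockdown 2, 1 in control 1 and 5 in control 2, against 4.39%, 22.6%, 7.46% and 7.53% of all regions. These shares rest on few regions and are no result about the VEGF genes. Taken by gene, 4 of the 8 genes with a peak in body or flanks (Kdr, Flt1, Nrp1 and Nrp2) had one in every library, against 48.8% of all such genes. Pgf was knockdown-only, against 6.01%, and 0 were control-only, against 0.288%.

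The knockdown-only count changed with the peaks and libraries kept. Shortening a list to its strongest peaks also removes its weak ones, so list length and peak strength cannot be told apart here. With every list reduced to its 7608 strongest peaks, 0 of the 14 remaining regions were knockdown-only, against 5.78% of all regions. With a −log10 q of at least 3, 3 of 18 were knockdown-only (16.7%, against 11.6% of all 16680 regions). They were the Plxnd1 start, the second Nrp2 region and the Flt1 start, whose control 2 peak fell below that limit. With 1 library left out, the count was 10 without knockdown 1 (35.7% of the regions left, against 34.2% of all regions) and 9 without knockdown 2 (33.3% against 18.9%). It was 5 without control 1 (16.1% against 11.7%) and 10 without control 2 (37.0% against 28.9%). A group reduced to 1 library counts each region of that library, and these shares were higher over all regions as well. Without control 1, 5 of 31 regions were found in control 2 and in no knockdown library, against 1944 of all 23388 regions.

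**Figure D4:**
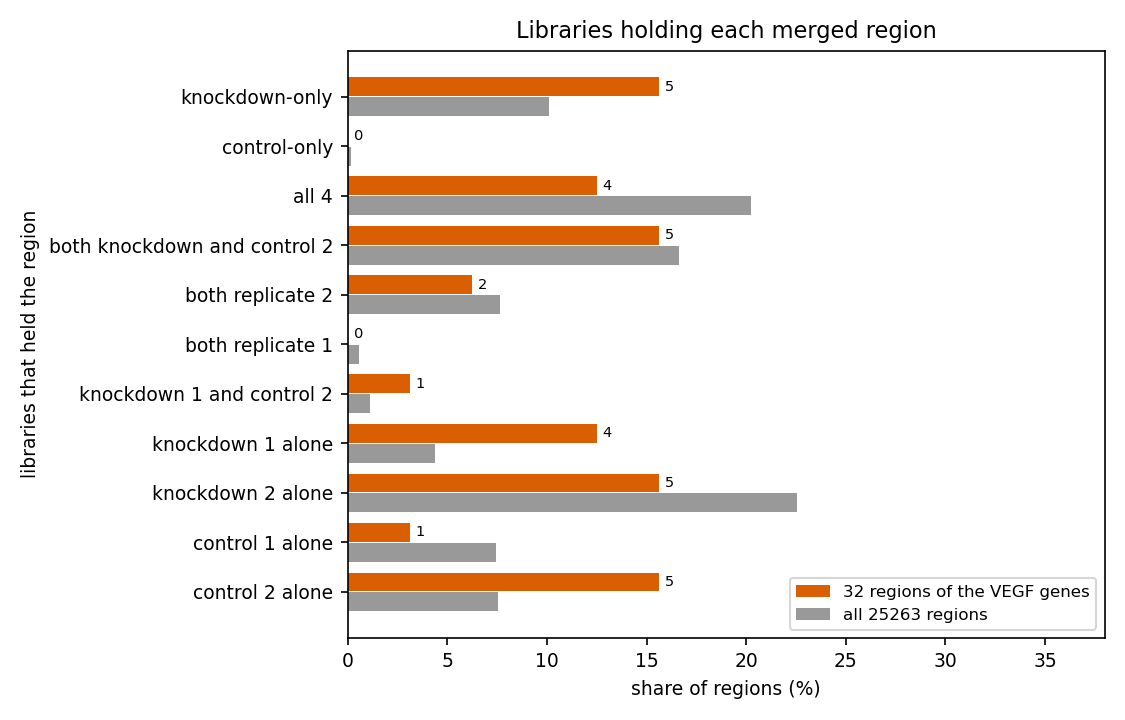
Share of merged regions (%) held by each combination of libraries, for the 32 regions of the VEGF genes (orange, with the number of regions beside the bar) and for all 25263 regions (grey). Knockdown-only regions make up 15.6% of the VEGF gene regions and 10.1% of all regions, and control-only regions 0 and 0.158%.

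By place, 26 of the 32 regions touched their gene body, and 11 lay within 1 kb of an end of their gene, 9 of them at the start. The share at an own gene end was 34.4%, and 37.5% of all merged regions lay at the end of some protein-coding gene. In the 300-base promoter windows, peaks were found at 7 and 5 of the 11 in the knockdown libraries and at 0 and 3 in the controls. Over all windows these shares were 27.1% and 30.7% in the knockdown libraries and 14.6% and 25.9% in the controls. Of the 7 windows with any peak, 3 (Kdr, Flt1 and Nrp2) were held by both knockdown libraries and control 2, against 25% of all windows with a peak. Another 2 (Flt4 and Plxnd1) were knockdown-only, against 8.6%, 0 were control-only, against 0.0913%, and the last 2 (Vegfa and Nrp1) were in knockdown 1 alone.

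Of 50 other genes of the pathway, a gene-end peak was held by 32 and 38 in the knockdown libraries and by 19 and 30 in the controls. Control 1 was again the lowest. Of the 38 with a gene-end peak in any library, 2 were knockdown-only (5.26%, against 7.82% of the 10496 genes with such a peak), 0 were control-only (against 0.0667%) and 18 were open in all libraries (47.4%, against 43.1%). The 2 were Sema3f, which encodes the semaphorin ligand of neuropilin 2, and Ccbe1, whose product helps to process VEGF-C. The Sema3f peaks stood at percentiles 86.7 and 73.0 and those of Ccbe1 at 98.8 and 83.3 in knockdown 1 and knockdown 2. Over body and flanks Sema3f was not knockdown-only, with 2 and 3 peaks in the knockdown libraries and 0 and 2 in the controls. Ccbe1 had 2 and 2 there against 0 and 0.

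Gene-end peaks were then counted by role. Over all protein-coding genes the share with such a peak was 39.5% and 45.2% in the knockdown libraries and 22.0% and 38.5% in the controls. Of 4 further ligand and ligand-processing genes, 1 and 2 had one in the knockdown libraries and 0 and 0 in the controls, and for 5 semaphorin genes the counts were also 1 and 2 against 0 and 0. Over body and flanks the controls were not empty. The ligand and processing genes with a peak there numbered 2 and 3 in the knockdown libraries and 2 and 2 in the controls. The semaphorin genes with one numbered 3 and 4 in the knockdown libraries and 1 and 2 in the controls. Of all protein-coding genes, 54.6% and 61.7% had one there in the knockdown libraries and 35.4% and 53.9% in the controls. Vegfb, a ligand of VEGFR1, had 2 and 4 peaks in the knockdown libraries and 2 and 3 in the controls, and Adamts3, a protease that processes VEGF-C, had 0 and 1 in the knockdown libraries and 1 and 2 in the controls. Vegfd, a further VEGFR3 ligand gene, and Sema3e, the gene of the plexin D1 ligand, had no peak in body or flanks in any library. Receptor partners were open in both groups, with 6 and 6 of 9 in the knockdown libraries and 4 and 6 in the controls, among them Cdh5 (VE-cadherin, which holds VEGFR2 at junctions) and Efnb2 (ephrin B2, which aids VEGF receptor uptake) in all 4. Of 22 signalling genes, 17 and 20 were open at a gene end in the knockdown libraries and 10 and 18 in the controls, and Plcg1, the phospholipase activated by VEGFR2, was open in all 4.

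Genes known to respond to VEGF were also open in both groups. Of the 10, 7 and 8 were open at a gene end in the knockdown libraries and 5 and 6 in the controls, and 4 (Rcan1, Nr4a2, Dusp5 and Dll4) were open in all libraries. None was knockdown-only at a gene end. Over body and flanks, 7 of the 10 had a peak in every library, against 48.8% of the 14239 genes with such a peak. Esm1 and Apln, both markers of sprouting tip cells, had 1 and 1 peaks in the knockdown libraries and 0 and 0 in the controls. Thus 2 of the 10 were knockdown-only there, against 6.01%. The other genes of the list were not knockdown-only over body and flanks. Angpt2 still had more peaks in each knockdown library than in either control, with 2 and 2 against 1 and 1. Dll4 had 2 and 4 in the knockdown libraries and 2 and 3 in the controls. Cxcr4 had a peak in knockdown 2 alone.

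Flt1, with the most peaks in total, was set beside all other protein-coding genes by the distance between their 4 peak counts. Slc25a25 had the same counts as Flt1 in every library, in a body of 37.0 kb against 164.8 kb. Rapgef2 and Vmp1 each differed by 1 peak in 1 library, as did 4 more genes. Each gene's 4 counts come from the same lists, and the part of list length in these likenesses was not tested.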

How the data were processed

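ATAC-seq peak lists of 4 libraries were used, 1 list per library and not pooled. The members, gene lists and motifs were chosen with earlier results of these data known. The submitters' processing notes name mm10 and these programs: MACS2 2.1.1, bedtools 2.26.0, SAMtools 1.3, Picard 2.9.2, Bowtie2 2.3.2 and Trimmomatic 0.36. Roles and settings, including any shift of reads for the transposase, are not given in the sources used here. The deposited columns are a fold enrichment (a ratio over the library's own background), a −log10 p and a −log10 q per peak, with a deposited score that is 10 times the −log10 q. No deposited peak had a −log10 q under 1.01, so weaker peaks are missing from every list.

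Peaks on the 19 autosomes and X were joined where they overlapped or touched (Python 3.11.15, pandas 2.3.3), and the functions were tested on simulated lists. An overlap of 1 bp put a peak in a window. Gene ends came from the RefSeq gene table, and strand, starts and sequences from the RefSeq promoter table (GRCm38.p6), where all 9 genes were found. All 9 genes are named, and of the pathway list those that are knockdown-only or control-only at a gene end; regions are named if in all libraries, knockdown-only, near a gene end or among the 2 best-ranked of a gene. Alternatives were a stricter q, equal list lengths, other windows and overlaps, each library left out, and the replicate number as a block.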

Additional observations from a re-analysis of the deposited data

How the results depend on the processing

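The difference between group means in peaks over the 9 genes, 9 with all peaks, was 2 with the 7608 strongest peaks per library and 16 with 50 kb flanks, and it stayed above 0 under all 9 alternatives. Without 1 library each it lay between 3 and 15. With the replicate number as a block it was again 9, from 14 within number 1 and 4 within number 2. The genes with a gene-end peak differed by 3, from 6 and 0. With 1 library of each group per number, a block leaves the mean difference unchanged by construction, so this alternative is no check on either value. The correlation of same-numbered deviations from the group means was 0.0315 over all regions, and with 2 pairs the numbers are not known to pair the libraries. Gene-end counts differed by 0.5 to 5.5 over the 8 alternatives, and by 0.5 to 5.5 with 1 library left out.

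The 5 knockdown-only regions (15.6% of 32, against 10.1% of all regions) became 3 of 18 with a −log10 q of at least 3 (16.7% against 11.6%), 0 of 14 with lists of equal length (0% against 5.78%) and 9 of 52 with 50 kb flanks (17.3% against 10.1%). With 1 library left out they numbered between 5 and 10, while the share of all regions ran from 11.7% to 34.2%. The 0 control-only regions became 1 of 14 with equal lists (against 207 of all 13722 regions) and 0 to 5 with 1 library left out. Without control 1 the knockdown-only and control-only counts were 5 and 5, and 1944 of all 23388 regions were control-only. Without control 2 they were 10 and 1, and 1926 of all 23375 regions were control-only. A group with 1 library left counts every region of that library, so such counts are unlike the others. For single genes the difference turned round for Kdr (1 with all peaks, -0.5 with equal lists and without control 1), for Flt4 (-0.5 with all peaks, 0.5 with the stricter q and with equal lists, 1 without control 2) and for Nrp1 (2 with all peaks, -1 with equal lists). With 1 library left out, Kdr lay between -0.5 and 2.5, Flt4 between -2 and 1 and Nrp1 between 0 and 4. The Nrp2 difference stayed between 1.5 and 3.5, but its groups overlapped with equal lists, where knockdown 2 had 5 peaks and knockdown 1 had 0 against 1 in each control, and met at 2 with the stricter q. The cause of these changes was not tested. Read depth is unknown and limits every statement about a missing peak.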
